A study of Homo sapiens with 15 samples.

Results

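Clustered protocadherins are cell surface adhesion proteins of the cadherin superfamily whose genes stand in 3 neighbouring clusters, alpha, beta and gamma, on chromosome 5. The 20 genes described here are all the genes of the expression table whose Ensembl identifier mapped to a symbol beginning PCDHA, PCDHB, PCDHGA, PCDHGB or PCDHGC with a number, out of 16604 genes. They comprise 11 beta genes and 9 gamma genes, and the gamma genes divide into 4 PCDHGA, 3 PCDHGB and 2 PCDHGC genes. The name table holds 57 such symbols in all, among them 14 of the alpha cluster and 5 pseudogenes. The other symbols, among them all 14 of the alpha cluster and all 5 pseudogenes, had no row in the table and were not analysed here. PCDHAC1 and PCDHAC2, alpha cluster genes whose symbols the rule does not match, are not among the 57 and were not examined here. The rule itself used symbols and no measured value. Which filter, if any, set the rows of the table is not given in the sources used here. A gene may have a row through only the lines where it was high.

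RNA was measured in 15 samples of 5 human cell lines, 3 biological replicates each, all grown in DMEM with fetal bovine serum and antibiotics. Ovcar4Parental is OVCAR4, a cell line long established from a high-grade serous carcinoma of the ovary, which the labels describe as sensitive to cisplatin and carboplatin. Ov4Cis was selected from it in rising cisplatin and Ov4Carbo in rising carboplatin, and both are labelled resistant to the drug used. Ov4Carbo4 and Ov4Carbo7 were each grown from a single cell of Ov4Carbo and are labelled carboplatin resistant. Each resistant line is therefore 1 derived population or clone, and the replicates measure the spread of cultures within a line and not between independent selections. The 3 lines Ov4Carbo, Ov4Carbo4 and Ov4Carbo7 share 1 selection. Values are log2 RPKM, read counts scaled to gene length and to library total, on a log2 scale, so that 0 corresponds to an RPKM of 1. Read totals were not used here, and the depth behind each value is unknown.

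As background, each beta gene is a single large exon that encodes a whole protein, whereas each gamma gene supplies 1 variable exon that is spliced to constant exons shared by the whole gamma cluster. Neurons choose a subset of the genes, each from its own promoter, and neighbouring cells that display the same combination recognise each other through homophilic binding. Most of the promoters carry a conserved element with the core CGCT that can be bound by CTCF, the insulator protein that with cohesin folds the clusters onto distant enhancers. The clusters are silenced together by DNA methylation in several carcinomas. In a bulk RNA sample, fewer cells that express a gene and less RNA per cell cannot be told apart.

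The promoter letters that mark each cluster are shown for the genes on which the results turn, together with the most abundant beta gene. RefSeq promoter sequences (GRCh38.p14, 250 bases before to 50 after each start site) were found for 18 of the 20 genes. PCDHB6 and PCDHB11 had no entry. All 18 are on the plus strand of chromosome 5. Capitals mark GGTGGCGCT in the beta stretches and GNCGCTGT in the gamma stretches, and every stretch lies upstream of the annotated start site.
PCDHB2 (chr5:141094533-141094567): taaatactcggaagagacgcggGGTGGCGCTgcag
PCDHB5 (chr5:141135168-141135202): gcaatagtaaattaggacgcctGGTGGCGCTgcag
PCDHB16 (chr5:141182299-141182333): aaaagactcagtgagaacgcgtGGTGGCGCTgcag
PCDHB9 (chr5:141187063-141187097): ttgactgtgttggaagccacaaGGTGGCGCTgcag
PCDHB10 (chr5:141192288-141192322): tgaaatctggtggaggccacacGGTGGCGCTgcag
PCDHB13 (chr5:141213854-141213888): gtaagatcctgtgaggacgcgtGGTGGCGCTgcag
PCDHGA7 (chr5:141382641-141382674): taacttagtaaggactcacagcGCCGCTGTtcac
PCDHGB6 (chr5:141407916-141407949): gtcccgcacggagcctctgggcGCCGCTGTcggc
PCDHGC3 (chr5:141475872-141475905): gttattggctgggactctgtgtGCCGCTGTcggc
PCDHGC4 (chr5:141484944-141484977): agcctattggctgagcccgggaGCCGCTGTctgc

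GGTGGCGCT was searched on both strands and occurred in 9 of 9 beta promoters and in 0 of 9 gamma promoters, against 0.501% of 35116 promoters in the table. GNCGCTGT occurred in at least 1 promoter of 9 of 9 gamma genes, in 0 of 9 beta promoters and in 4.35% of all promoters. Members with more than 1 annotated start were counted once, whereas the share of all was taken over single promoters. The later PCDHGB6 window (from 141407953) had 0 plus-strand matches. The 2 words overlap in the core CGCT, which was found for 18 of 18 genes and which 70% of all promoters hold. The shorter word GGCGCT, which ends GGTGGCGCT, was found for 9 of 9 beta and 4 of 9 gamma genes (21.7% of all promoters). These counts are descriptions and were given no test. In PCDHB8 the 9 letters span the start site, so no stretch is printed for it. PCDHGC4 belongs to the genes usually described as lacking the conserved element, and the match there is one of letters only. PCDHB5 and PCDHB16, the beta genes that fell most in each carboplatin-selected line, carried the same 9 letters as PCDHB2, PCDHB9, PCDHB10 and PCDHB13. The number of CpG dinucleotides in the promoter window was 6 for PCDHB5, 9 for PCDHB16 and 9 for PCDHB8, against 5 to 10 over the 9 beta genes. PCDHGC3 had 18 and PCDHGC4 had 23 or 24 at its 2 annotated starts.

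Sequence shared with relatives limits how surely reads can be given to 1 gene, and whether the authors' counting set aside shared reads is not given in the sources used here. Of all 75-base windows of its transcripts in GENCODE v29, PCDHB5 shared 6.69% with another gene, PCDHB16 14.2%, PCDHB6 9.59%, PCDHB2 15.1% and PCDHB13 18.6%. PCDHB10 shared 29.1%. PCDHB8 shared 38.8%, more than several gamma genes, and 25.1% of its windows were found in PCDHB13. The gamma genes shared between 31.3% and 50.1%, chiefly their constant exons. Antisense or overlapping transcripts cover 14.7% of the exonic bases of PCDHB5 and 24.9% of those of PCDHB16, and none of those transcripts has a row in the table.

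Across all samples the most abundant beta genes were PCDHB2, PCDHB14 and PCDHB11, with mean log2 RPKM of 2.36, 1.62 and 0.99. Among the gamma genes PCDHGC3, which is expressed widely outside the brain and whose product can bind AXIN1 and damp Wnt signalling, stood highest at 2.70. PCDHGA7 averaged 0.40, while the other 7 gamma genes averaged below 0, from -1.18 for PCDHGB6 to -2.56 for PCDHGA9. A line mean of at least 0 was reached by 10 of the 20 genes in Ovcar4Parental and by 12 in Ov4Cis, but by 7 in each of Ov4Carbo and Ov4Carbo7 and by 8 in Ov4Carbo4. Over all 16604 genes that share was nearly constant, between 82.1% and 82.5%. The 5 beta genes PCDHB2, PCDHB10, PCDHB11, PCDHB13 and PCDHB14, and also PCDHGC3, passed this level in every line.

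**Figure D1:**
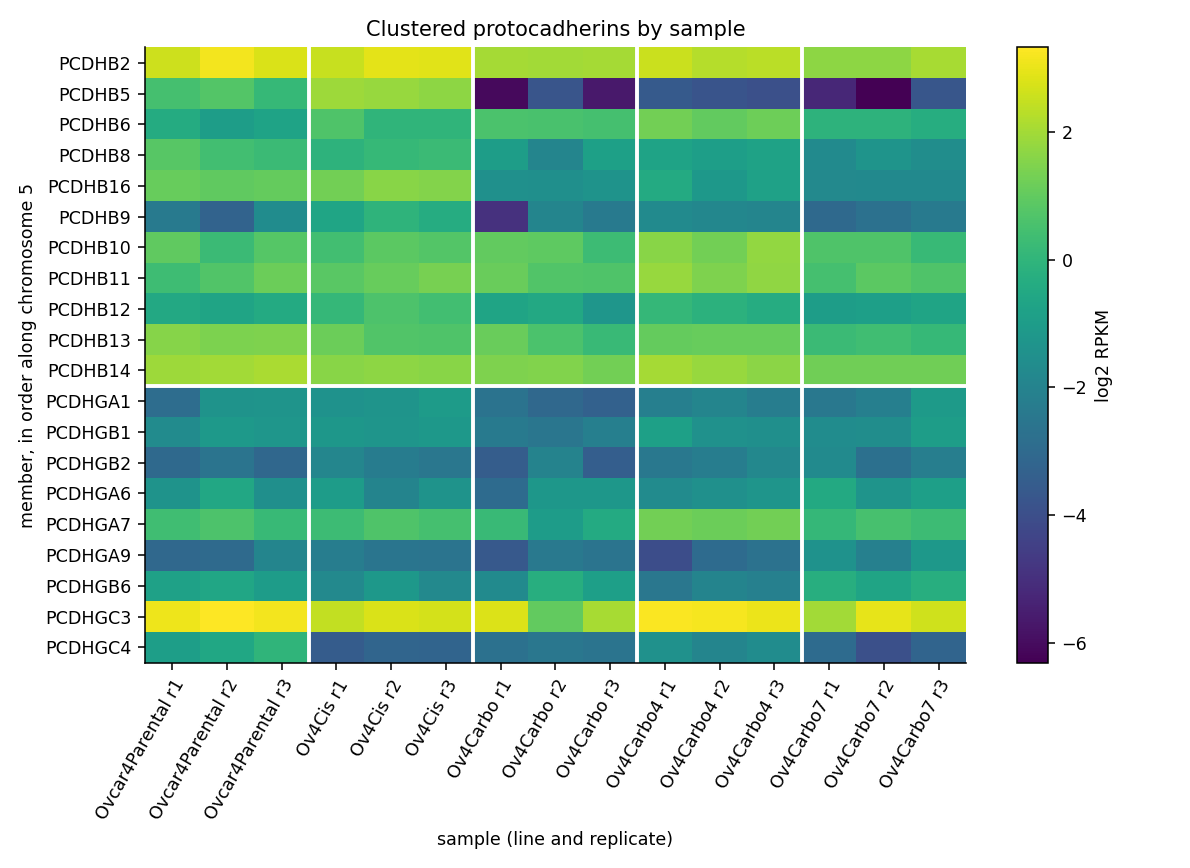
Heat map of log2 RPKM of the 20 genes (rows, in their order along chromosome 5) in the 15 samples (columns, by line and replicate). White lines separate the lines and the beta from the gamma genes. The row of PCDHB5 runs from 1.89 in an Ov4Cis sample to -6.31 in an Ov4Carbo7 sample, while PCDHB2 stays between 1.67 and 3.14.

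Summed over the 20 genes, RPKM was 37.0 ± 2.13 in Ovcar4Parental and 36.1 ± 2.52 in Ov4Cis (mean ± SD, n = 3 each). It was 21.7 ± 3.24 in Ov4Carbo, 34.9 ± 2.31 in Ov4Carbo4 and 22.3 ± 2.17 in Ov4Carbo7. The highest single sample of Ov4Carbo (25.4) and of Ov4Carbo7 (23.9) lay below the lowest sample of the other 3 lines (33.2, in Ov4Carbo4). The sum in Ov4Carbo4 overlapped that of the parental line, unlike that of its source population Ov4Carbo. Beta genes made up 64.2% of the sum in the parental line and 73.0% in Ov4Cis. Their share was 68.8% in Ov4Carbo and, in the clones, 62.0% (Ov4Carbo4) and 55.9% (Ov4Carbo7). PCDHB5 and PCDHB16 together supplied 14.5% of the beta sum in the parental line and 24.0% in Ov4Cis, but 2.75%, 3.04% and 2.69% in Ov4Carbo, Ov4Carbo4 and Ov4Carbo7. These sums are descriptions and were given no test.

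**Figure D2:**
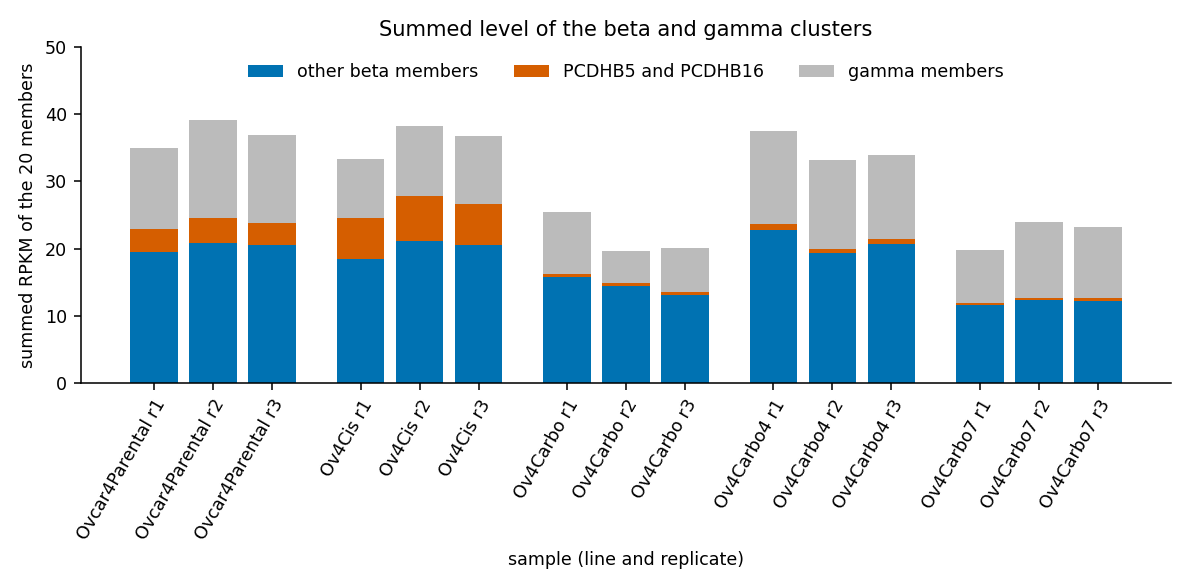
Stacked bars of summed RPKM (linear axis from 0) in each of the 15 samples, split from bottom to top into 9 beta genes, the pair PCDHB5 and PCDHB16, and the 9 gamma genes. The band of that pair nearly vanishes in the 9 carboplatin-selected samples, and the total bar is lowest in Ov4Carbo and Ov4Carbo7.

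Differences among the 5 lines passed the moderated F-test of limma (adjusted p under 0.05 over all genes) for 18 of the 20 genes, where 76.9% of all genes passed. PCDHB16 (adjusted p = 1.371e-08), PCDHB5 (1.256e-06) and PCDHGC4 (5.24e-06) had the smallest adjusted p. PCDHGB2 (adjusted p = 0.1352) and PCDHGA6 (0.3753) did not pass. Their line means spanned 0.79 and 0.89 log2 units.

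Each resistant line was then compared with the parental line, whose 3 samples all 4 comparisons share. Genes counted as called had a limma adjusted p under 0.05 and differed by 1 log2 unit or more. Ov4Cis had 2 of 20 genes called (15.9% of all genes), 1 higher and 1 lower. Ov4Carbo had 8 (12.7% of all genes), 1 higher and 7 lower, where 6.93% of all genes were called lower. Ov4Carbo4 had 6 (15.1% of all genes), 1 higher and 5 lower, and Ov4Carbo7 had 6 (17% of all genes), all lower, where 7.70% and 7.75% of all genes were called lower. The median log2 fold change of the 20 genes was 0.11, -0.74, -0.20 and -0.23 in that order, and the median of all genes lay between 0.02 and 0.07. Called lower in all 3 carboplatin-selected lines were PCDHB5, PCDHB8, PCDHB16 and PCDHGC4, or 4 of 20 genes, where 2.11% of all genes showed this pattern. None of the 20 was called higher in all 3 of those lines (2.11% of all genes). Members at low level weigh on these counts. On the log2(RPKM + 1) scale, which compresses values below RPKM 1, the counts were 0, 3, 1 and 2, from PCDHB5 in all 3 carboplatin-selected lines, PCDHB16 in Ov4Carbo and Ov4Carbo7 and PCDHGC3 in Ov4Carbo.

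**Figure D3:**
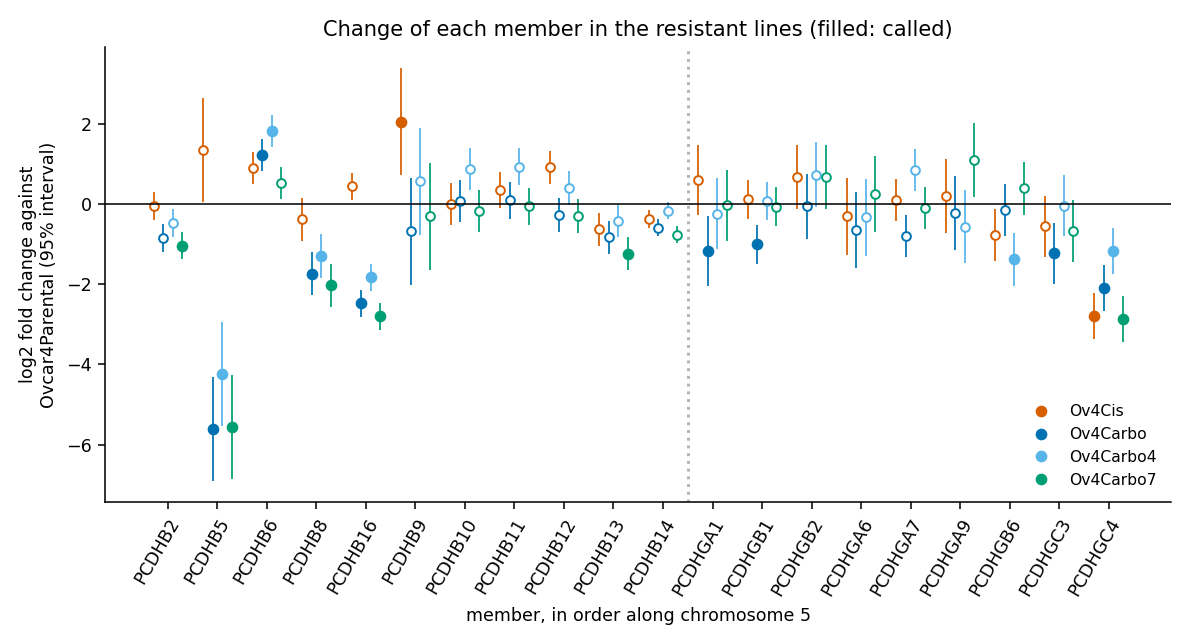
Log2 fold change of each gene against Ovcar4Parental (vertical axis, points with 95% confidence intervals from limma) for the 4 resistant lines, in order along chromosome 5. Filled points are called genes and the dotted line separates beta from gamma genes. PCDHB5 lies between -4.24 and -5.61 in the carboplatin-selected lines and at 1.35 in Ov4Cis, and PCDHB6 next to it lies above 0 in all 4 lines.

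PCDHB5 (ENSG00000113209), an adhesion receptor gene near the start of the beta cluster, showed the widest range. Its log2 RPKM was 0.47, 0.74 and 0.15 in the parental replicates and 1.89, 1.84 and 1.67 in Ov4Cis. Ov4Carbo stood at -6.05, -3.78 and -5.63, Ov4Carbo4 at -3.58, -3.80 and -3.96 and Ov4Carbo7 at -5.24, -6.31 and -3.74. All 9 carboplatin-selected samples lay far below all 6 others, and Ov4Cis lay above the parental line without overlap. In mean RPKM the levels were 1.39 in the parental line and 3.49 in Ov4Cis, against 0.036, 0.073 and 0.038 in Ov4Carbo, Ov4Carbo4 and Ov4Carbo7. On the log2 scale PCDHB5 changed by -5.61 in Ov4Carbo (SE 0.60, adjusted p = 2.62e-05). In the clones it changed by -4.24 (Ov4Carbo4, adjusted p = 1.399e-04) and -5.55 (Ov4Carbo7, adjusted p = 1.379e-05). Its log2 fold change in Ov4Cis was 1.35 (95% interval 0.05 to 2.64, adjusted p = 0.09891). The size of the falls depends on how values near 0 were treated. They were -1.20, -1.15 and -1.20 on the log2(RPKM + 1) scale and were called there too.

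PCDHB16 (ENSG00000272674), a beta gene 3 places further along among the genes measured, was likewise highest in Ov4Cis, then in the parental line, and lower in the 3 carboplatin-selected lines. The parental replicates stood at 1.08, 0.97 and 1.06 log2 RPKM and the Ov4Cis replicates at 1.28, 1.63 and 1.54. Ov4Carbo stood at -1.467, -1.496 and -1.349, Ov4Carbo4 at -0.42, -1.16 and -0.79, and Ov4Carbo7 at -1.79, -1.75 and -1.74. The carboplatin-selected samples again all lay below the other 6, and Ov4Carbo4 lay above its source population and above Ov4Carbo7. PCDHB16 fell by 2.47 in Ov4Carbo (SE 0.15, adjusted p = 4.356e-07). It fell by 1.83 in Ov4Carbo4 (adjusted p = 2.336e-06), and the fold change in Ov4Carbo7 was -2.798 (adjusted p = 1.006e-07). In Ov4Cis it was 0.45 higher, which passed the adjusted p (0.03788) but not the fold limit. On the log2(RPKM + 1) scale the Ov4Carbo4 value was -0.94, under the fold limit.

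PCDHB8, which lies between PCDHB6 and PCDHB16 in the order of the genes measured, stood at 0.82, 0.41 and 0.25 in the parental line and at -0.09, 0.16 and 0.26 in Ov4Cis. It stood at -0.96, -1.94 and -0.84 in Ov4Carbo, at -0.74, -0.90 and -0.78 in Ov4Carbo4 and at -1.72, -1.33 and -1.57 in Ov4Carbo7. The 9 carboplatin-selected samples were all below the lowest of the others, by a narrower gap than for PCDHB16. The log2 fold changes were -1.74 (adjusted p = 2.397e-04), -1.30 (1.285e-03) and -2.03 (3.783e-05) in Ov4Carbo, Ov4Carbo4 and Ov4Carbo7, and none was called on the log2(RPKM + 1) scale. PCDHB13, which shares windows with PCDHB8 as given above, was called lower in Ov4Carbo7 alone, at -1.24 (adjusted p = 2.19e-04).

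PCDHB6 went the other way. It stood at -0.39, -0.93 and -0.73 in the parental line, at 0.59, 0.56 and 0.50 in Ov4Carbo and at 1.26, 0.99 and 1.18 in Ov4Carbo4. Ov4Carbo7 stood at -0.08, -0.07 and -0.32, and Ov4Cis between -0.01 and 0.66. All 12 resistant samples were above the 3 parental samples. PCDHB6 rose by 1.23 in Ov4Carbo (adjusted p = 2.987e-04) and by 1.83 in Ov4Carbo4 (adjusted p = 8.86e-06), and the differences of 0.90 in Ov4Cis and 0.53 in Ov4Carbo7 passed the adjusted p but not the fold limit. On the log2(RPKM + 1) scale the Ov4Carbo and Ov4Carbo4 values were 0.60 and 0.98, under that limit. PCDHB6 thus lies between genes that fell, with PCDHB5 on one side and PCDHB8 on the other.

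**Figure D4:**
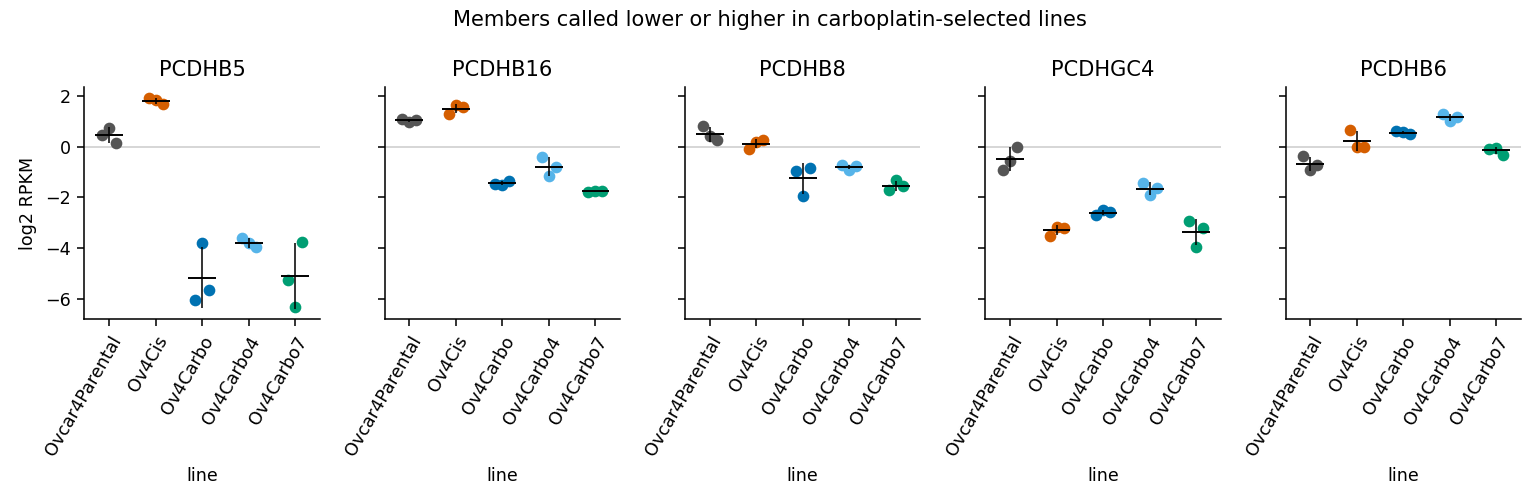
Log2 RPKM in each sample (points), with the mean (horizontal bar) and SD (vertical bar) of the 3 replicates of each line, for 5 genes. PCDHB5, PCDHB16 and PCDHB8 separate the 9 carboplatin-selected samples from the parental and Ov4Cis samples, PCDHGC4 separates the parental samples from the rest, and PCDHB6 is lowest in the parental line.

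The other beta genes had fewer calls. PCDHB2 stood at 2.59, 3.14 and 2.77 in the parental line and 1.68, 1.67 and 2.05 in Ov4Carbo7, and fell by 1.03 there (adjusted p = 2.459e-04). The call for PCDHB2 was lost without replicate 1 or 2 of Ov4Carbo7 (-0.98 and -0.97) or without parental replicate 2 (-0.88), when the fold limit was missed. PCDHB9, which was low everywhere, rose by 2.06 in Ov4Cis (adjusted p = 0.01951), from -2.34, -3.23 and -1.62 in the parental line to -0.65, -0.03 and -0.33. That call did not survive leaving out parental replicate 2 (1.64), Ov4Cis replicate 2 (1.91) or Ov4Cis replicate 3 (2.05). PCDHB10, PCDHB11, PCDHB12 and PCDHB14 were called in no comparison with the parental line, their log2 fold changes running from -0.76 for PCDHB14 in Ov4Carbo7 to 0.93 for PCDHB11 in Ov4Carbo4.

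Among the gamma genes, PCDHGC4, a C-type gene known for its part in the survival of cortical interneurons, was the only one of the 20 called lower in all 4 resistant lines (1.65% of all genes). Its log2 RPKM was -0.93, -0.57 and -0.00198 in the parental replicates and -3.51, -3.15 and -3.19 in Ov4Cis. Ov4Carbo stood at -2.71, -2.50 and -2.59, Ov4Carbo4 at -1.42, -1.91 and -1.64 and Ov4Carbo7 at -2.93, -3.94 and -3.21. The parental samples were all above the 12 others, among which Ov4Carbo4 was highest. PCDHGC4 fell by 2.78 in Ov4Cis (SE 0.26, adjusted p = 4.494e-06). The carboplatin-selected lines had log2 fold changes of -2.10 (Ov4Carbo, 8.956e-05), -1.16 (Ov4Carbo4, 3.933e-03) and -2.86 (Ov4Carbo7, 4.215e-06). Even the parental mean was an RPKM of 0.733, and on the log2(RPKM + 1) scale the differences were -0.64, -0.56, -0.38 and -0.65, with none called. The Ov4Carbo4 call was also lost without parental replicate 3, at -0.91.

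PCDHGC3, the most abundant of the 20, stood at 3.09, 3.32 and 3.17 in the parental line and at 2.81, 1.02 and 2.07 in Ov4Carbo, where it fell by 1.23 (adjusted p = 0.01857). The 3 Ov4Carbo cultures were far apart, and without replicate 2 of Ov4Carbo the value was -0.76 and no longer called, as also without parental replicate 2 (-1.17). Its differences in Ov4Cis, Ov4Carbo4 and Ov4Carbo7 were -0.56, -0.03 and -0.67, with 95% intervals that include 0. PCDHGA1 and PCDHGB1 were called lower in Ov4Carbo, at -1.17 (adjusted p = 0.04183) and -1.005 (4.39e-03). The PCDHGA1 call was lost in 4 of the fits without a replicate that bear on it, namely parental replicate 2 (-0.93) or 3 (-0.91) and Ov4Carbo replicate 2 (-1.14) or 3 (-1.01), and the PCDHGB1 call without parental replicate 2 (-0.88) or 3 (-0.97) and without Ov4Carbo replicate 2 (-0.92) or 1. PCDHGB6 was called lower in Ov4Carbo4, at -1.38 (adjusted p = 3.13e-03). PCDHGB2, PCDHGA6, PCDHGA7 and PCDHGA9 were called in no comparison with the parental line.

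Since the carboplatin-selected lines and Ov4Cis share the parental reference, they were also compared directly, a comparison added after the values were seen. Against Ov4Cis, Ov4Carbo had 7 of 20 genes called (13.8% of all genes), all lower. Over all 20 genes, called or not, the samples of these lines did not overlap for 11, in either direction (41% of all genes). Ov4Carbo4 had 3 (16.8% of all genes), 1 higher and 2 lower, and Ov4Carbo7 had 6 (14.7% of all genes), 1 higher and 5 lower. PCDHB5 had log2 fold changes of -6.95, -5.58 and -6.90 against Ov4Cis in Ov4Carbo, Ov4Carbo4 and Ov4Carbo7 (largest adjusted p = 1.261e-05). PCDHB16 had log2 fold changes of -2.92, -2.27 and -3.24 (largest adjusted p = 2.921e-07). These 2 genes were called lower in each carboplatin-selected line than in both the parental line and Ov4Cis, a pattern shown by 0.385% of all genes. On the log2(RPKM + 1) scale they were the only genes of the 20 called against Ov4Cis, 2 in each line. PCDHB8 was called lower than in Ov4Cis in Ov4Carbo (-1.36) and Ov4Carbo7 (-1.65), but the Ov4Carbo4 value of -0.92 missed the fold limit (adjusted p = 9.829e-03). PCDHB9 and PCDHB12 were called lower than in Ov4Cis in Ov4Carbo (-2.74 and -1.18) and Ov4Carbo7 (-2.36 and -1.21). PCDHGC4 was higher in Ov4Carbo4 than in Ov4Cis by 1.62 (adjusted p = 3.425e-04), while Ov4Carbo and Ov4Carbo7 differed from Ov4Cis by 0.68 (95% interval 0.11 to 1.26, adjusted p = 0.0626) and -0.08 (-0.65 to 0.49).

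The numbers in the sample titles fall into 2 runs, which the labels do not call a batch. One run of 7 samples holds replicate 1 of Ov4Carbo with all Ov4Carbo4 and Ov4Carbo7 samples, and the other holds the remaining 8 samples. Only Ov4Carbo is found in both. A term for the runs therefore rests on its replicate 1 set against its replicates 2 and 3. Within the second run, replicates 2 and 3 of Ov4Carbo can be set against the parental line directly, and the differences were -5.16 for PCDHB5, -2.46 for PCDHB16, -1.88 for PCDHB8 and -2.04 for PCDHGC4, all called. With a term for the runs, PCDHB5 in Ov4Carbo4 was -2.89 and missed the threshold (adjusted p = 0.05347), PCDHGC4 in Ov4Carbo4 was -0.99 (adjusted p = 0.1552) and PCDHGB6 in Ov4Carbo4 was -0.24 (adjusted p = 0.6853). PCDHB16 and PCDHB8 remained called in all 3 carboplatin-selected lines with that term.

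The single-cell lines were compared with Ov4Carbo and with each other. Ov4Carbo4 had 4 of 20 genes called against Ov4Carbo (14.2% of all genes), 3 higher and 1 lower. Ov4Carbo7 had 2 (13.3% of all genes), both higher. Between the clones, Ov4Carbo7 had 5 genes called against Ov4Carbo4 (20.9% of all genes), 2 higher and 3 lower. None of these calls was left in the fit to log2(RPKM + 1). Without replicate 3 of Ov4Carbo7 the count for Ov4Carbo7 against Ov4Carbo was 0, and the genes called there, PCDHGA1 (1.14) and PCDHGA9 (1.32), both had line means below RPKM 1.

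The beta genes differed between the clones in 1 direction. All 11 beta estimates were negative in Ov4Carbo7 against Ov4Carbo4 (52.9% of all genes), from -0.57 for PCDHB2 to -1.31 for PCDHB5, with a median of -0.87 against -0.05 over all genes. At the adjusted p alone, 9 of 11 were lower, where 27.1% of all genes were. PCDHB5 (adjusted p = 0.0844) and PCDHB9 (0.2577) did not pass. Only PCDHB6, at -1.30 (adjusted p = 7.99e-05), and PCDHB10, at -1.03 (3.293e-03), also reached the fold limit. The PCDHB10 value missed that limit without replicate 3 of Ov4Carbo4 (-0.93) or of Ov4Carbo7 (-0.87). The beta genes share sequence and are not independent of one another. In Ov4Carbo4 against Ov4Carbo all 11 beta estimates were above 0, where 47.4% of all genes were below 0. Of the 11, 6 passed the adjusted p alone (23.1% of all genes were higher by that rule) and 0 reached the fold limit. Both comparisons use the Ov4Carbo4 samples. All Ov4Carbo4 and Ov4Carbo7 samples belong to the same run of titles, but replicates 2 and 3 of Ov4Carbo belong to the other run. In replicate 1 of Ov4Carbo, the only one in the run of the clones, PCDHB13 stood at 1.12, above the Ov4Carbo4 samples (1.05, 1.07 and 1.07). The other beta genes stood below all Ov4Carbo4 samples there. Beta estimates of Ov4Carbo7 also lay mostly below 0 in its other comparisons. They were below 0 for 11 of 11 genes against Ov4Cis (50.7% of all genes), 10 against the parental line (48.6%) and 9 against Ov4Carbo (50%).

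Gamma genes showed no common direction between the clones, with 5 of 9 estimates below 0 in Ov4Carbo7 against Ov4Carbo4 (52.9% of all genes). Against Ov4Carbo, 2 of 9 were below 0 in Ov4Carbo4 (47.4% of all genes) and 1 of 9 in Ov4Carbo7 (50% of all genes). The gamma medians against Ov4Carbo were 0.93 in Ov4Carbo4 and 0.73 in Ov4Carbo7. PCDHGB6 stood at -2.47, -1.97 and -2.11 in Ov4Carbo4 and at -0.27, -0.68 and -0.27 in Ov4Carbo7, without overlap, higher by 1.77 in Ov4Carbo7 (SE 0.30, adjusted p = 3.668e-04). PCDHGA9 was higher in Ov4Carbo7 by 1.66 (adjusted p = 5.504e-03). PCDHGC4 was lower there, at -1.70 (adjusted p = 1.771e-04). PCDHGA7 stood at 1.27, 1.16 and 1.28 in Ov4Carbo4 and at 0.204, -0.999 and -0.414 in Ov4Carbo, and rose by 1.64 against Ov4Carbo (adjusted p = 2.181e-04). PCDHGC3 and PCDHGB1 were also higher in Ov4Carbo4 than in Ov4Carbo, by 1.20 (adjusted p = 0.01724) and 1.08 (2.176e-03), and PCDHGB6 was lower, at -1.23 (6.413e-03). The PCDHGC3 call was lost without Ov4Carbo replicate 2 (0.72) or Ov4Carbo4 replicate 1 (1.15), the PCDHGB1 call without Ov4Carbo4 replicate 1 (0.87) or Ov4Carbo replicate 2, and the PCDHGB6 call without Ov4Carbo replicate 2 (-0.89). Without Ov4Carbo4 replicate 1, 2 of the 4 calls against Ov4Carbo were left.

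**Figure D5:**
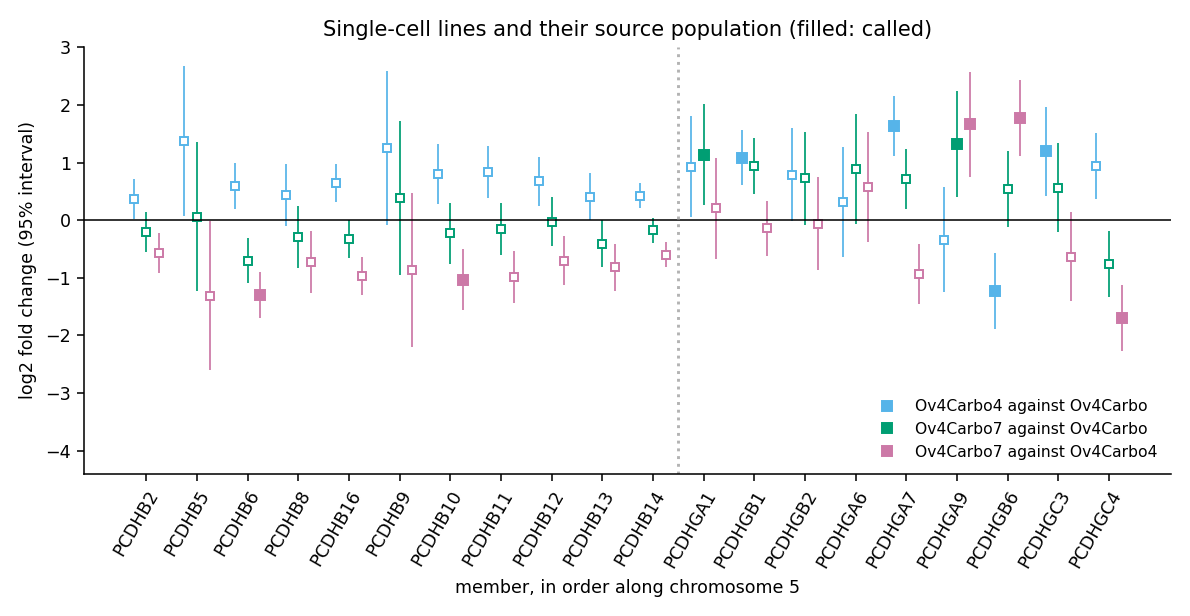
Log2 fold change of each gene (points with 95% confidence intervals from limma) for Ov4Carbo4 and Ov4Carbo7 against Ov4Carbo and for Ov4Carbo7 against Ov4Carbo4, in order along chromosome 5. Filled points are called genes. The 11 beta genes to the left of the dotted line all lie below 0 for Ov4Carbo7 against Ov4Carbo4. For Ov4Carbo4 against Ov4Carbo they all lie above 0. Of the 9 gamma genes, 5 lie below 0 for Ov4Carbo7 against Ov4Carbo4. Against Ov4Carbo, 2 of the 9 lie below 0 for Ov4Carbo4 and 1 for Ov4Carbo7.

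Genes around and upstream of the clusters were set beside these values. Of 27 measured genes that flank the clusters on chromosome 5, Ov4Cis had 1 called against the parental line (15.9% of all genes), Ov4Carbo 3 (12.7%), Ov4Carbo4 1 (15.1%) and Ov4Carbo7 3 (17%), so that in each line the share called was below that of all genes. HBEGF (-1.11) and SPRY4 (-1.12) were those called lower, both in Ov4Carbo. RELL2, on the side of the gamma cluster, was called higher in the 3 carboplatin-selected lines, by 1.29, 1.52 and 2.62. TAF7, which lies between the beta and gamma clusters, was called in none of the 4 comparisons. The median log2 fold change of the flanking genes lay between 0.08 and 0.25.

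Genes that act on the clusters (CTCF, cohesin and its loaders, SMCHD1, DNA methyltransferases, TET enzymes, SETDB1 and REST partners, 31 of 31 measured) had 1, 0, 2 and 1 genes called against the parental line in Ov4Cis, Ov4Carbo, Ov4Carbo4 and Ov4Carbo7, where 15.9%, 12.7%, 15.1% and 17% of all genes were. At the adjusted p alone, 14 of the 31 were higher in Ov4Carbo4 than in the parental line (21.6% of all genes) and 1 lower (18%). By that rule 8 were lower in Ov4Cis (16.4% of all genes), 7 in Ov4Carbo (16.2%) and 11 in Ov4Carbo7 (20.4%). Those higher in the same lines numbered 1, 2 and 2 (19.8%, 17.7% and 22.2% of all genes). Against Ov4Carbo, 18 were higher in Ov4Carbo4 by that rule and 0 lower (23.1% of all genes were higher), in the comparison in which all 11 beta estimates were above 0. PDS5B, a cohesin regulator, was lower in Ov4Cis (-1.05), 0 of 31 were called in Ov4Carbo, TET1 (1.02) and EHMT1 (1.08) were higher in Ov4Carbo4, and RCOR1, a partner of REST, was lower in Ov4Carbo7 (-1.01). CTCF itself stood between 3.58 in Ov4Carbo and 4.25 in Ov4Carbo4 and was called in no comparison with the parental line. Its fall in Ov4Carbo (-0.41) passed the limma adjusted p (0.03176) but not the fold limit. Between the clones, however, 22 of the 31 were lower in Ov4Carbo7 at the adjusted p alone, where 27.1% of all genes were, and 5 reached the fold limit. TET1 (-1.93), PDS5B (-1.30), TET3 (-1.29), EHMT1 (-1.23) and SMC3 (-1.08) were those 5. The part of these genes in the beta differences was not tested.

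Partners and proteases of the clustered proteins (21 measured) had 4, 2, 3 and 3 genes called in Ov4Cis, Ov4Carbo, Ov4Carbo4 and Ov4Carbo7. The shares of all genes called were 15.9%, 12.7%, 15.1% and 17%. PTK2B was called lower in all 4 resistant lines. It encodes PYK2, a kinase that the gamma and alpha protocadherins are known to inhibit. Its log2 fold change was -2.49 in Ov4Cis and -1.92 in Ov4Carbo, and in the clones -1.38 (Ov4Carbo4) and -1.74 (Ov4Carbo7). APH1B, a subunit of the gamma-secretase that cleaves protocadherins, was called higher in Ov4Cis (1.37), Ov4Carbo4 (1.39) and Ov4Carbo7 (1.22). The other calls were CYFIP2 (-1.64) and WASF1 (1.22) in Ov4Cis, FYN in Ov4Carbo (-1.11) and Ov4Carbo4 (-1.26), and WASF3 in Ov4Carbo7 (-1.21). Of 10 measured non-clustered protocadherins and related giant cadherins, 6, 5, 5 and 4 were called in Ov4Cis, Ov4Carbo, Ov4Carbo4 and Ov4Carbo7, where 15.9%, 12.7%, 15.1% and 17% of all genes were. PCDH7, which lies elsewhere in the genome, changed by -7.50, -4.37 and -3.83 in the first 3 lines. It was not called in Ov4Carbo7 (2.23, limma adjusted p = 0.1221), so its order of lines differed from that of PCDHB5. The 3 Ov4Carbo samples were far apart for PCDH7 (SD 3.23 log2 units), which makes the -4.37 uncertain. FAT3 fell further in Ov4Cis (-7.99) and in Ov4Carbo (-4.98, SD 0.41 there). It was also called lower in Ov4Carbo7 (-6.31) but not in Ov4Carbo4 (-0.20). Among genes of this list with a line mean of at least 0, the largest called rises were PCDH9 in Ov4Carbo (2.02), PCDH18 in Ov4Carbo4 (1.37) and FAT4 in Ov4Carbo7 (1.62).

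The lines were checked against markers. PAX8, the lineage factor of Müllerian epithelium and serous carcinoma, stood between 5.85 and 6.74 log2 RPKM in all lines. The epithelial genes KRT7 and CDH1 were called lower in all 4 resistant lines, most in Ov4Cis (-8.85 and -8.14), where the beta genes PCDHB5 and PCDHB16 were at their highest. WT1, often used with PAX8, was low throughout, from -5.07 to -1.52, but was called higher in Ov4Cis (3.56), Ov4Carbo (2.38) and Ov4Carbo4 (2.81). Of the 8 genes of this list, 6, 2, 3 and 6 were called lower in Ov4Cis, Ov4Carbo, Ov4Carbo4 and Ov4Carbo7. The shares of all genes called lower were 7.41%, 6.93%, 7.70% and 7.75% in that order. Those called lower included MUC16 and EPCAM in Ov4Cis (-6.32 and -4.81) and Ov4Carbo7 (-4.81 and -2.97). Of 5 measured neuron genes, MAP2 had line means from 2.58 to 4.58 and SNAP25 from -0.31 to 1.68, while RBFOX3, SYT1 and SYP were below 0 in every line. Against the parental line SYT1 was called higher in all 4 resistant lines and RBFOX3 in all but Ov4Carbo, by 4.22 in Ov4Cis and 3.72 in Ov4Carbo7. In Ov4Carbo4 MAP2 was called higher (1.17) and SNAP25 lower (-1.09), and SYP was called lower in Ov4Carbo (-1.17). Of 5 fibroblast genes, COL1A1 stood between 2.26 and 3.63, PDGFRB, LUM and THY1 were below 0 in every line, and COL1A2 was above 0 only in the parental line. COL1A2 was called lower in all 4 resistant lines. PDGFRB was called lower in the 3 carboplatin lines and higher in Ov4Cis (1.23), LUM higher in Ov4Carbo (2.16) and Ov4Carbo7 (2.73), THY1 lower in Ov4Carbo4 (-2.38) and higher in Ov4Carbo7 (1.63), and COL1A1 higher in Ov4Carbo4 (1.21). Any part of these differences in the protocadherin values was not tested.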

How the data were processed

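The authors deposited log2 RPKM values after conditional quantile normalization (cqn), per the file headers and name. BWA 0.7.15-r1140, HTSeq and the build GRCh37 (hg19) are named in the submitters' processing notes, and the strand setting is not given in the sources used here. The number of reads behind each sample is unknown, and counting error cannot be stated. The table had 16604 genes, 0 missing values and 0 identical sample pairs, and all sample medians were 2.77. The lowest value was -8.18, and the level of such genes depends on the offset used by the authors.

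Symbols came from an Ensembl name table (16448 genes matched). Gene order, exon overlaps and transcripts came from GENCODE v29, on a later build. The order and overlaps rest on its positions, none of which is printed. Promoter sequences and their coordinates are from RefSeq, GRCh38.p14. With R 4.3.3, limma 3.58.1 (two-sided moderated tests from lmFit and eBayes at their defaults) was fitted to all genes and 15 samples with a coefficient for each line, with the Benjamini-Hochberg method over all genes in each of 7 comparisons and 3 added ones. It was first tested on simulated data. Python 3.11.15, pandas 2.3.3 and matplotlib 3.10.9 made the tables and figures. The alternatives were other scales, a filter on low genes, a variance trend, centring, fits restricted to the compared groups, a block for the replicate number, a term for the title runs, a stricter threshold and leaving out each replicate. Same-numbered replicates had correlations of their deviations from -0.39 to 0.44 over 30 pairs, 11 of them over 0.1, so the numbers were not taken to pair samples.

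The genes and lists were chosen with earlier results of these data known. Named genes were the 3 with the highest mean in each subfamily and the 3 largest called rises and falls per comparison with a line mean of at least log2 RPKM 0, and of each list the genes called alike in all 4 resistant lines and the largest called rise and fall. Other genes of the clusters are given to account for all 20, and other regulators, flanking genes and markers were picked after their values were seen. Of the lists, 10 of 18 non-clustered genes, 27 of 32 flanking genes, 21 of 22 partners, 8 of 8 serous, 5 of 10 neuron, 5 of 8 fibroblast and 0 of 4 leukocyte markers had rows.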

Additional observations from a re-analysis of the deposited data

Results flagged for a closer look

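The change against the parental line differed between Ov4Carbo and Ov4Cis for 7 of the 20 genes (13.8% of all genes), by a direct limma comparison. That comparison was added after the values were seen. Each of the 7 was lower in Ov4Carbo, and only PCDHB5 and PCDHB16 stayed called on the log2(RPKM + 1) scale. The difference of the 2 changes was -6.95 log2 units for PCDHB5, -2.92 for PCDHB16, -2.74 for PCDHB9, -1.77 for PCDHGA1, -1.36 for PCDHB8, -1.18 for PCDHB12 and -1.12 for PCDHGB1. The adjusted p ran from 4.424e-08 for PCDHB16 to 5.194e-03 for PCDHGA1. The 2 lines were each selected once, so drug and selection cannot be told apart.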

How the results depend on the processing

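Low expression limits these results most, since 12 of the 20 genes had a mean below log2 RPKM 0, and the title runs cannot be separated from the lines beyond Ov4Carbo. In the order Ov4Cis, Ov4Carbo, Ov4Carbo4 and Ov4Carbo7 against the parental line, Ov4Carbo4 and Ov4Carbo7 against Ov4Carbo, and Ov4Carbo7 against Ov4Carbo4, the counts of called genes on the log2(RPKM + 1) scale were 0, 3, 1, 2, 0, 0 and 0. Against Ov4Cis, Ov4Carbo and Ov4Carbo7 then had 2 each. With only the 8 genes of mean log2 RPKM 0 or more (13558 genes tested) they were 0, 2, 1, 2, 2, 0 and 2, with 0 in each comparison with Ov4Cis, and 8 passed the F-test. In that fit fewer of the 20 genes were tested. The mean was taken over all 15 samples, so low values in the carboplatin-selected lines helped to remove PCDHB5 (-2.36), PCDHB16 (-0.29) and PCDHB8 (-0.60). No gene called against Ov4Cis in the main fit was among the 8, so no such call could be kept. The 9 calls still tested were all kept. Ov4Carbo4 against Ov4Carbo had 2 on the log2(RPKM + 0.1) scale and 2 with only the groups compared. Ov4Carbo7 against Ov4Carbo had 0 on the log2(RPKM + 0.1) scale, 0 with only the groups compared, 1 with the variance trend, 4 with a term for the title runs and 0 at an adjusted p under 0.01, where Ov4Cis against the parental line had 1. With the title term Ov4Carbo7 against the parental line had 11 and Ov4Carbo4 against Ov4Cis had 5, and PCDHB9 in Ov4Carbo7 against Ov4Cis reversed to 0.41 (adjusted p = 0.6464). The title term rests on replicate 1 of Ov4Carbo set against its replicates 2 and 3. PCDHB9 stood at -4.92 in replicate 1 and at -1.94 and -2.37 in replicates 2 and 3. With the replicate block the counts were 2, 8, 6, 7, 4, 2 and 5, then 7, 3 and 6 against Ov4Cis, 17 passed the F-test, and all 49 calls were kept, as with centring on the median.

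Leaving out 1 replicate gave 1 to 3 called genes in Ov4Cis, 5 to 9 in Ov4Carbo, 6 to 7 in Ov4Carbo4 and 5 to 7 in Ov4Carbo7 against the parental line. It gave 2 to 5 and 0 to 2 for Ov4Carbo4 and Ov4Carbo7 against Ov4Carbo and 4 to 7 between the clones. Against Ov4Cis it gave 6 to 10, 3 to 5 and 6 to 7, and 16 to 18 genes passed the F-test. The count fell to 1 in Ov4Cis without parental replicate 2 and to 5 in Ov4Carbo without parental replicate 2 or Ov4Carbo replicate 2, and rose to 5 in Ov4Carbo4 against Ov4Cis without Ov4Cis replicate 1. Summed RPKM ranged over 35.951 to 38.080 (Ovcar4Parental), 35.009 to 37.466 (Ov4Cis), 19.854 to 22.789 (Ov4Carbo), 33.541 to 35.686 (Ov4Carbo4) and 21.501 to 23.531 (Ov4Carbo7), and the genes at log2 RPKM 0 or more ranged from 11 to 12 in Ov4Cis and stayed at 10, 7, 8 and 7 in the others. With values below log2 RPKM 0 counted as 0, the sums were 32.7, 32.2, 18.0, 30.9 and 17.3 in the order Ovcar4Parental, Ov4Cis, Ov4Carbo, Ov4Carbo4 and Ov4Carbo7. A limit of log2 RPKM 1 left 5, 6, 3 and 3 genes in Ovcar4Parental, Ov4Cis, Ov4Carbo and Ov4Carbo7, and a limit of -1 gave 11 in Ov4Carbo7.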
